A study of Xenopus tropicalis with 9 samples.

Results

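Argininosuccinate synthase 1 (ass1) and glycine amidinotransferase (gatm) were followed across tail libraries of Xenopus tropicalis, a frog whose tail is resorbed at metamorphosis. The enzyme encoded by ass1 joins citrulline and aspartate into argininosuccinate, from which argininosuccinate lyase (asl) releases arginine. The enzyme encoded by gatm moves the amidino group of arginine onto glycine, the first step of creatine synthesis, and arginine is also the substrate of arginase and of nitric oxide synthase. In bullfrog liver the urea cycle enzymes are known to rise at metamorphosis, when the animal turns from excreting ammonia to excreting urea. Creatine serves as an energy buffer and is used most in muscle.

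Both genes were chosen by their symbols in the authors' tables of selected genes and by their count values, which moved in opposite directions between the stages. They are 2 of the 19921 genes of the count table, each symbol named 1 identifier, and both passed the filter on low counts with 14125 genes in all. The stage difference therefore chose them, and it is given below as a description with no test. For gatm the symbol comes only from the authors' table of genes with a ratio above 2 between whole and notochord-removed tail, so that difference is also given without a test. The symbol of ass1 stands in that table and in the table of genes with a ratio above 2 between the stages.

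The wild type tails form 3 groups of 3 libraries: whole tail at stage 60 (before metamorphosis, per the series' design text), whole tail at stage 63 (during it) and stage 63 tail from which the notochord, the stiff rod along the body axis, had been taken out. No drug or transgene is named for any group, and the labels do not say how many animals a library holds or whether replicate libraries are separate animals. If they are not, the p-values measure technical spread only. Library totals over genes ran from 26928846 to 34836531 counts. Levels are given as CPM, counts set relative to the library total, with TMM factors that make the typical gene equal between libraries. Differences are log2 with their standard error (SE). Among known notochord genes, the brachyury transcription factor gene tbxt gives a partial check of the tissue labels. It had a mean of 4.08 CPM in stage 63 whole tail and of 0.398 CPM after notochord removal. Of 7 named notochord markers, 6 were called higher with the notochord (adjusted p under 0.05), where 15.3% of tested genes with a symbol were. Some differed less, such as krt8 at 108 and 52.1 CPM, and matn4 was not called higher, at 5.71 and 5.95 CPM. Their symbols come only from the authors' tables of selected genes. A marker that fell with stage, such as krt8, could be named only through a ratio above 2 with the notochord. The count of 6 is thus largely fixed by selection and is no check of the labels.

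The gene ass1 (ENSXETG00000001347) lies on scaffold GL172827.1 from 1775399 to 1823726, on the minus strand, with 15 exon blocks and 1700 exonic bases. The gene gatm (ENSXETG00000016109) lies on scaffold GL173147.1 from 363520 to 378263, also on the minus strand, with 9 exon blocks and 2052 exonic bases. Positions follow the count table, and the sources used here do not name its genome build. No other gene of the table overlaps either of them, the nearest being 12428 bases from ass1 and 24901 bases from gatm.

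With TMM scaling, ass1 was higher in whole tail at stage 63 than at stage 60 and overlapped the stage 60 level where the notochord had been removed. The stage 60 libraries were at 14.4, 14.1 and 13.3 CPM. The stage 63 whole tails were at 27.5, 27.5 and 30.3 CPM, and the notochord-removed tails at 13.2, 13.8 and 14.4 CPM. All 3 whole tails of stage 63 lay above the other 6 libraries, while the stage 60 and notochord-removed libraries overlapped. Over all genes tested, 44.0% had whole tail libraries of stage 63 all above those of stage 60, and 41.5% all below. The group means were 13.9 ± 0.608, 28.4 ± 1.63 and 13.8 ± 0.559 CPM (SD, n = 3 each).

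The level of gatm went the other way by stage. It was at 45.8, 42.0 and 45.6 CPM at stage 60, on 859, 816 and 826 counts. In stage 63 whole tails it was at 0.153, 0.402 and 0.235 CPM, on 6, 14 and 10 counts. In notochord-removed tails it was at 0.0843, 0.0849 and 0.146 CPM, on 3, 3 and 6 counts. Both stage 63 groups were thus far below stage 60. The lowest whole tail lay just above the highest notochord-removed one, each on 6 counts. Without the TMM factors these libraries were at 0.180 and 0.183 CPM, so the stage 63 groups overlapped. The means were 44.5 ± 2.12, 0.263 ± 0.127 and 0.105 ± 0.0355 CPM (SD, n = 3 each). In bulk tissue, fewer cells of a type and less RNA per cell cannot be told apart.

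**Figure D1:**
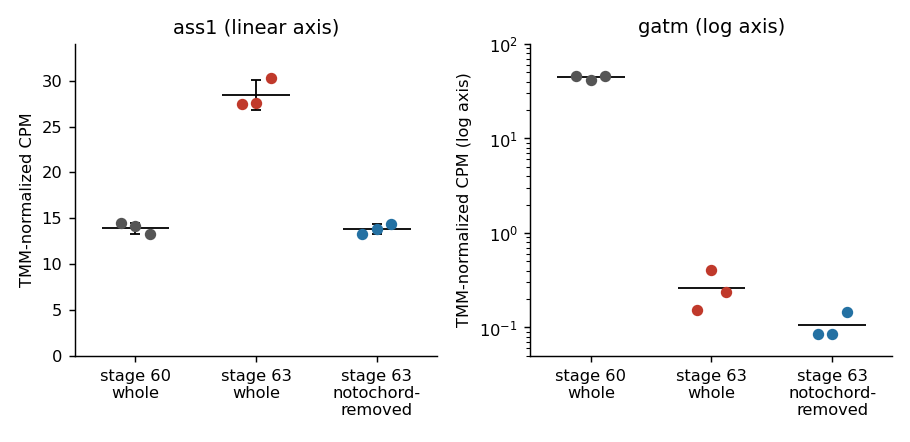
TMM-normalized CPM of ass1 (left, linear axis) and gatm (right, log axis) in the 3 libraries of each group; points are libraries, horizontal lines group means, and bars in the left panel the SD. For ass1 the stage 63 whole tails stand alone at 27.5 to 30.3 CPM, and for gatm the stage 60 tails stand alone at 42.0 to 45.8 CPM.

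Between the stages in whole tail the log2 difference was 1.03 (SE 0.075) for ass1, which is 2.04-fold higher at stage 63, and -7.41 (SE 0.15) for gatm, which is 170-fold lower. In this comparison 43.0% of all genes tested were called higher and 40.8% lower (edgeR's quasi-likelihood test, Benjamini-Hochberg adjusted p under 0.05), and the contrast chose the members, so nothing is read from it. Ordered by log2 difference, gatm was number 11 from the lowest of 14125 genes and ass1 number 3320 from the highest. Between notochord-removed tail at stage 63 and whole tail at stage 60, which uses the same stage 60 libraries, the values were -0.014 (SE 0.079) for ass1 and -8.65 (SE 0.17) for gatm. Of all genes tested, 43.3% were called higher and 39.7% lower there, and ranges did not overlap for 43.6% higher and 39.8% lower. The approximate 95% interval for ass1 ran from -0.17 to 0.14. The SE of both gatm values are too narrow for its few stage 63 counts. For -7.41 the SE was 0.28 with DESeq2 and 0.28 with limma-voom, and for -8.65 it was 0.43 and 0.37.

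The size of these stage differences rests on the scaling. With library size alone, the stage difference of ass1 was 1.85 and its difference between notochord-removed tail and stage 60 was 0.84, while the median of all genes moved by 0.82 and 0.85. Without the TMM factors ass1 was at 16.1 to 17.95 CPM in notochord-removed tails and at 8.91 to 9.74 CPM at stage 60, so these groups no longer overlapped. The overlap after TMM scaling thus describes ass1 relative to the typical gene, not to the library total. In the authors' deposited table, built on mean FPKM (fragments scaled by gene length and library size) with no such factor, ass1 was at 5.57 FPKM at stage 60, 20.1 FPKM in stage 63 whole tail and 9.96 FPKM in notochord-removed tail. The same table type gave gatm 14.7 FPKM at stage 60 and 0.154 FPKM in whole tail at stage 63.

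The ratio of both genes within a library needs no scaling between libraries. Per kilobase of exon, gatm had 2.63, 2.47 and 2.85 times the counts of ass1 in the stage 60 libraries. At stage 63 the order was turned: ass1 had 217, 82.7 and 156 times the counts of gatm per kilobase in whole tails, and 188, 198 and 119 times in notochord-removed tails. The 2 groups of stage 63 overlapped in this ratio. By level per kilobase among the genes tested, ass1 went from the 58.1 percentile at stage 60 to the 75.5 percentile in stage 63 whole tail and the 56.4 percentile in notochord-removed tail. For gatm these percentiles were 78.4, 1.47 and 0.368. The gene passed the filter on low counts through its stage 60 libraries, and genes low in every group were removed. Its low percentiles at stage 63 therefore depend on the filter and are no result about gatm.

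**Figure D2:**
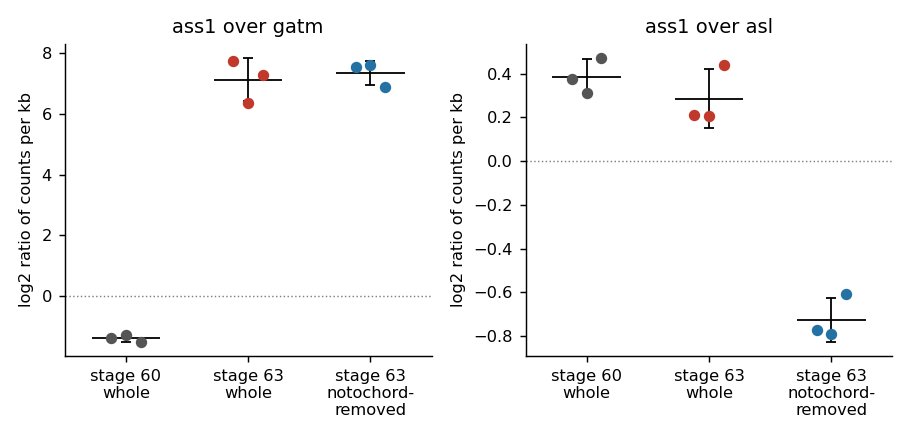
Log2 ratio of counts per kilobase within each library, for ass1 over gatm (left) and ass1 over asl (right), by group; points are libraries, lines means and bars the SD, and 0 marks equal levels. The ass1 to gatm ratio turns from below 0 at stage 60 to above 6 in all stage 63 libraries, and the ass1 to asl ratio is below 0 in the 3 notochord-removed libraries and above it in the other 6.

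The question at stage 63 was which transcripts differed between tails with and without their notochord. For ass1 the log2 difference, whole minus removed, was 1.04 (SE 0.07), or 2.06-fold, and it passed the test over all genes (edgeR adjusted p = 2.54e-09). All 3 whole tails were above all 3 notochord-removed tails, as for 18.3% of all genes. Of all genes tested, 11.1% were called higher and 14.5% lower in whole tail, and ass1 was number 153 from the highest by log2 difference. This difference was known when the gene was chosen and placed it in the authors' table, so it is not an independent finding. In the authors' deposited table its ratio was 2.02, close to the threshold of 2: 10 of the 936 genes there had a lower ratio.

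For gatm the log2 difference between whole and notochord-removed tail was 1.24 (SE 0.44). It rests on 30 counts against 12, a ratio of 2.402 after scaling with an exact 95% counting interval from 1.19 to 5.15. That interval covers counting error only. The gene has its symbol only through a ratio above 2 in this comparison, so the interval is no test. With single libraries left out the log2 difference ran from 0.85 without stage 63 whole tail replicate 2 to 1.56 without notochord-removed replicate 3. At these counts the size of the difference is loosely fixed; the stage 60 libraries held 2501 counts together.

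The other arginine genes were taken from lists of linked pathways. These lists hold 84 symbols besides ass1 and gatm, of which 26 have a named row and 24 passed the filter; the rest, among them the creatine step gamt and the creatine kinases, were not analysed here. All 26 rows are named in the authors' table of genes with a ratio above 2 between the stages. All 24 tested were higher at stage 63 in whole tail, where 92.8% of genes with a symbol were. Their median log2 stage difference was 0.84, against 1.02 for all tested genes with a symbol and 0.051 for all genes tested, so the selection fixes the direction of this count. The stage differences of these genes, and those of notochord-removed tail from stage 60, are therefore given as descriptions with no test.

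The lyase gene asl, the next step after ass1, was at 9.64, 9.83 and 8.29 CPM at stage 60. It was at 20.6, 20.6 and 19.4 CPM in stage 63 whole tails and at 19.6, 20.7 and 18.96 CPM in notochord-removed tails. Its stage difference was 1.12 (SE 0.084), and its stage 63 groups overlapped. Whole minus removed was 0.032 (SE 0.071; edgeR adjusted p = 0.780), with an approximate 95% interval from -0.11 to 0.17, which lies below the interval of ass1, 0.91 to 1.18.

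Within a library, the ratio of ass1 to asl per kilobase was 1.30, 1.24 and 1.39 at stage 60. It was 1.156, 1.155 and 1.357 in stage 63 whole tails and 0.585, 0.578 and 0.656 in notochord-removed tails. Stage 60 and whole stage 63 tails overlapped, and all 3 notochord-removed tails were below the other 6 libraries. The log2 ratio differed by 1.01 between whole and notochord-removed tail (exact two-sided permutation p = 0.1, the smallest that 3 against 3 allows). The difference of ass1 was known when the gene was chosen, so this separation is no independent finding.

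Arginase 1 (arg1), which splits arginine into ornithine and urea, is the other tested gene of the list of arginine synthesis and the urea cycle. It was at 0.320, 0.154 and 0.331 CPM at stage 60, on 6, 3 and 6 counts, and at 8.86, 8.41 and 8.24 CPM in stage 63 whole tails. Notochord-removed tails lay between, at 3.79, 3.90 and 3.43 CPM, and no group overlapped another. The stage difference was 4.97, with an SE of 0.20, or of 0.39 with DESeq2. Whole minus removed was 1.199 (SE 0.10; edgeR adjusted p = 8.65e-08), in the same direction as ass1, and arg1 too is in the authors' notochord table, so this is no independent finding either. Notochord-removed tail stood above stage 60 by 3.78 (SE 0.23). The third named gene of this list, the acetylglutamate synthase gene nags, had 3, 12 and 13 counts over the groups and was not tested.

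The inducible nitric oxide synthase gene nos2, whose product makes nitric oxide and citrulline from arginine, was at 1.54, 1.75 and 1.71 CPM at stage 60. It was at 6.38, 5.54 and 4.93 CPM in stage 63 whole tails and at 3.79, 3.54 and 2.99 CPM in notochord-removed tails. Its 3 groups did not overlap. Its stage difference was 1.75 (SE 0.16), and whole tail of stage 63 exceeded notochord-removed tail by 0.71 (SE 0.12; edgeR adjusted p = 3.06e-04). The cyclohydrolase gene gch1, which supplies the biopterin cofactor of that enzyme, differed by 0.50 (SE 0.15; edgeR adjusted p = 0.0174), and this call was lost without stage 63 whole tail replicate 1 (edgeR adjusted p = 0.0873; 0.00810 to 0.0873 over the alternatives). In notochord-removed tail gch1 overlapped stage 60, at 2.04 to 2.63 against 1.66 to 2.61 CPM.

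**Figure D3:**
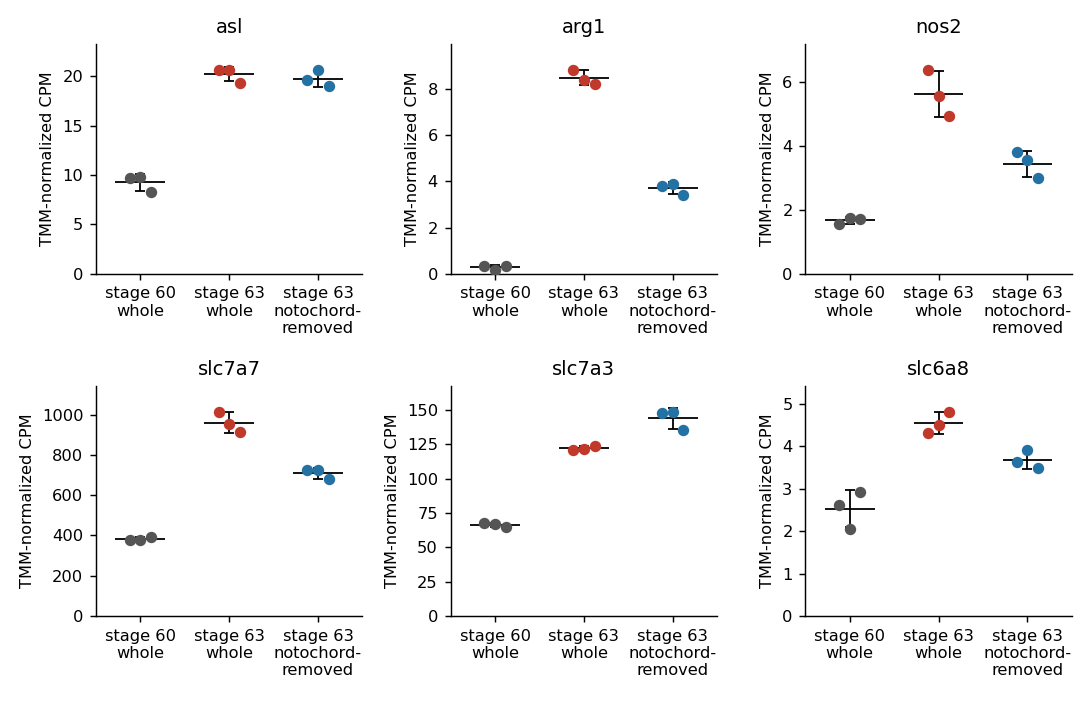
TMM-normalized CPM of 6 linked genes by group; points are libraries, lines means and bars the SD. The genes arg1, nos2, slc7a7 and slc6a8 fall between stage 60 and stage 63 whole tail where the notochord is removed. The gene asl does not separate the stage 63 groups, and slc7a3 is highest in notochord-removed tail.

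Of 8 tested transporters of arginine and other cationic amino acids, 8 were higher at stage 63 in whole tail, a direction fixed by the selection. Against notochord-removed tail 1 was higher and 1 lower in stage 63 whole tail, and 6 passed neither way, where 15.3% and 8.46% of all tested genes with a symbol were called higher and lower. The exporter light chain gene slc7a7 was at 376, 377 and 393 CPM at stage 60, at 1014, 955 and 912 CPM in stage 63 whole tails and at 726, 723 and 678 CPM in notochord-removed tails. It was higher in whole tail by 0.44 (SE 0.065; edgeR adjusted p = 7.27e-05). The cationic amino acid importer gene slc7a3 was lower in whole tail, by -0.24 (SE 0.06; edgeR adjusted p = 0.00674), at 121 to 124 CPM against 135 to 149 CPM. The stage difference was 2.61 (SE 0.094) for the related light chain gene slc7a6 and 1.98 (SE 0.077) for slc38a9, a lysosomal arginine sensor in mammals. For the broad amino acid importer gene slc6a14.2, 5, 1 and 1 counts in the stage 60 libraries stood against 3181 over the stage 63 whole tails. The stage difference was 0.29 for the heavy chain gene slc3a2, whose product pairs with both light chains. For slc7a9 and slc3a1, which in mammals form the cystine and dibasic amino acid transporter of the kidney, it was 3.09 (SE 0.35) and 0.84 (SE 0.21), the former on 3, 2 and 5 counts in the stage 60 libraries. The paralog slc7a2.2 had 2 counts in all and was not tested.

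Besides gatm, the genes of the creatine list with a named row were both transporter genes. The creatine importer gene slc6a8 was at 2.61, 2.06 and 2.93 CPM at stage 60, at 4.31, 4.51 and 4.82 CPM in stage 63 whole tails and at 3.62, 3.90 and 3.48 CPM in notochord-removed tails. Its stage difference was 0.85 (SE 0.14). Whole minus removed was 0.31 for slc6a8 (SE 0.12, edgeR adjusted p = 0.0545), which did not pass. The creatine and monocarboxylate transporter gene slc16a12 had a stage difference of 0.38 (SE 0.095) and was lower with than without the notochord, by -0.43 (SE 0.084; edgeR adjusted p = 9.58e-04). Per kilobase at stage 60, gatm stood at 21.7 ± 1.03 CPM, above slc16a12 at 9.29 ± 1.10 and slc6a8 at 1.31 ± 0.228 (SD, n = 3 each). In stage 63 whole tail gatm stood at 0.128 ± 0.0617 CPM per kilobase, below slc16a12 at 12.1 ± 0.182 and slc6a8 at 2.36 ± 0.131.

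The remaining linked genes had stage differences from 0.24 to 1.46, and none was called between whole and notochord-removed tail. Among polyamine genes the stage difference was 1.37 (SE 0.064) for the spermine oxidase gene smox, 0.42 for the spermidine synthase gene srm and 0.24 for the acetyltransferase gene sat1. For glutamine synthetase (glul) it was 0.63 (SE 0.07). In the glycine and methyl donor list, it was 1.46 (SE 0.063) and 0.59 for the glycine cleavage genes gldc and amt; glycine is the second substrate of the gatm enzyme. For the adenosylhomocysteinase-like gene ahcyl1 it was 0.82 (SE 0.082). The methionine synthase gene mtr had a stage difference of 0.27, and the methionine adenosyltransferase subunit gene mat2b one of 0.37.

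Over all 24 linked genes, 4 were higher in whole tail of stage 63 than after notochord removal, 2 were lower and 18 did not pass. That is 16.7% higher and 8.33% lower, near the 15.3% and 8.46% of all tested genes with a symbol. The median difference was -0.0031, against 0.061 for all tested genes with a symbol and 0.0065 for all genes tested. Chi-square per degree of freedom between libraries was 22.9 and 19.9 for notochord-removed replicate 3 against the other libraries of its group, and 3.09 between those. Among stage 63 whole tails it was 21.9 between replicates 1 and 3, 9.72 between 1 and 2 and 5.06 between 2 and 3. Without notochord-removed replicate 3, 4 were higher and 6 lower, with ahcyl1, mtr, sat1 and slc6a14.2 added among the lower. For ass1 the difference was 1.07 without that library. Without stage 63 whole tail replicate 1, 3 were higher and 2 lower and ass1 was at 1.06. Without replicate 3 of that group, 4 were higher and 2 lower and ass1 was at 0.99. Shares of all genes called with a library left out are not given here. The counts of linked genes with a library left out are therefore not read as a result about these genes.

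**Figure D4:**
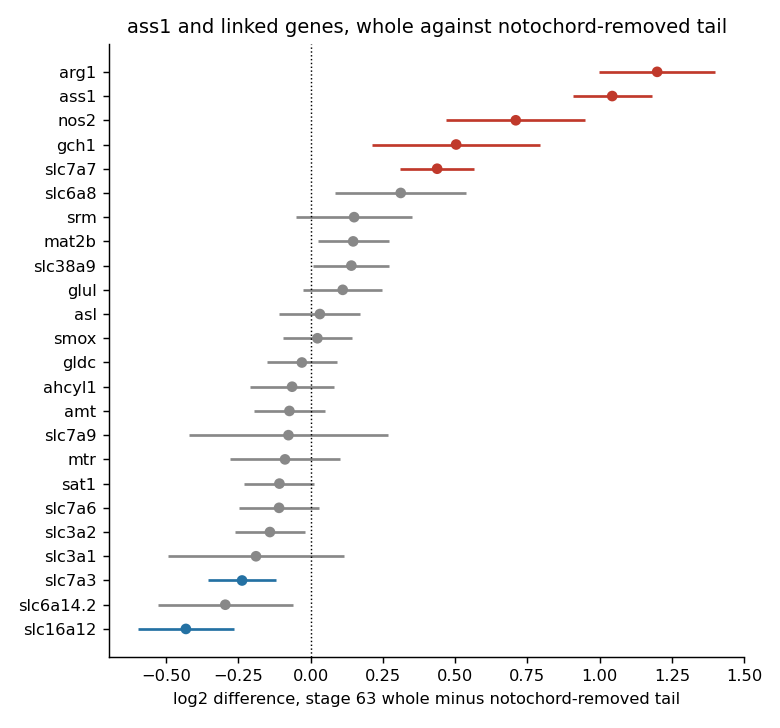
Log2 difference between stage 63 whole and notochord-removed tail for ass1 and tested linked genes; bars are approximate 95% intervals, red genes were called higher, blue lower and grey not called. The genes arg1, ass1, nos2, gch1 and slc7a7 lie to the right of 0, and slc7a3 and slc16a12 to the left.

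The named genes most like each member were found by the root mean square difference of their log2 levels, each centred on its own mean, over the 9 libraries and 5604 tested genes with a symbol. For ass1 they were the actin nucleator gene spire2 (0.147), the immunoglobulin heavy chain gene ighx (0.161), the phospholipid scramblase gene plscr1 (0.189), the procollagen peptidase gene adamts14 (0.196) and the class II histocompatibility gene mhc2a (0.210). These had stage differences from 0.75 to 0.93 and whole minus removed differences from 0.69 to 1.19. The gene ighx, for instance, was at 7.14 ± 0.169, 13.5 ± 1.66 and 5.93 ± 0.186 CPM in stage 60, whole stage 63 and notochord-removed tail (SD, n = 3 each). Among all genes tested, named or not, spire2 was the nearest to ass1.

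For gatm the nearest were the keratin gene krt18l (0.580), the cartilage matrix gene chad (1.13), mgc79670 (1.16), the vimentin gene vim.2 (1.44) and the muscle phosphoglycerate mutase gene pgam2 (1.498). All 5 were named through the authors' notochord table only, and 2 unnamed genes were nearer to gatm than krt18l. The level of krt18l was 199 ± 3.83 CPM at stage 60, 0.972 ± 0.175 CPM in stage 63 whole tail and 0.291 ± 0.130 CPM after notochord removal (SD, n = 3 each). Few genes that fell have a symbol, so the nearest named genes describe a small part of those that fell with gatm.

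**Figure D5:**
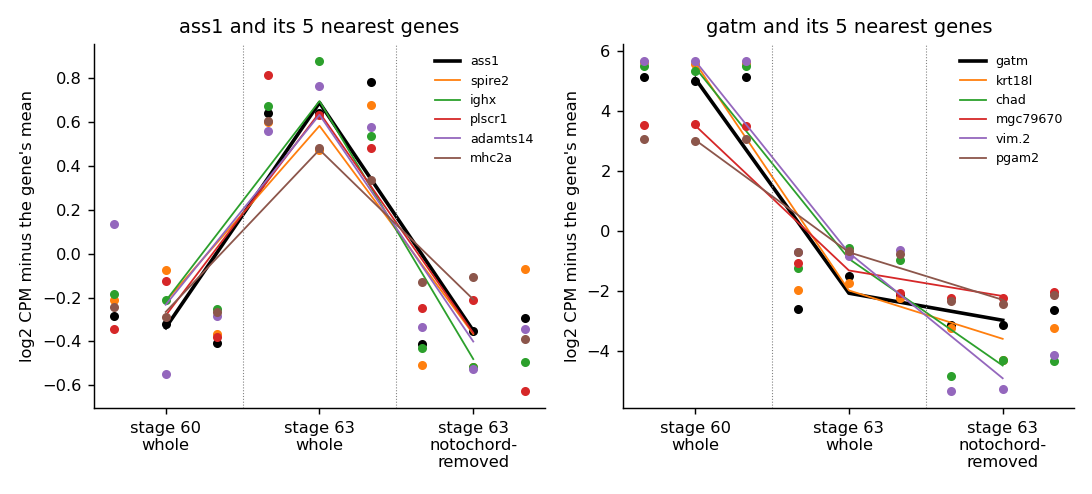
Log2 CPM minus each gene's own mean for ass1 (left) and gatm (right), in black, with the 5 named genes most like each; points are the 3 libraries of a group and lines join the group means. The genes near ass1 are high in stage 63 whole tail alone, within 0.210 of ass1, while those near gatm are high at stage 60 and differ from it by 0.580 to 1.498.

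Cell type markers moved in the same libraries. Their symbols too come only from the authors' tables of genes with a ratio above 2, so the direction of the counts below is largely fixed by selection: a marker that fell with stage could be named only through the notochord table. The summed level of 7 notochord markers with a named row, of 11 in the list, was 1432 to 1483 CPM at stage 60, 126 to 134 CPM in stage 63 whole tail and 55.9 to 71.4 CPM in notochord-removed tail, none at 0 in every library of a group. Of these markers 4 were lower and 2 higher at stage 63 than at stage 60 in whole tail. Of all genes tested 40.8% were lower there, and 92.8% of those with a symbol were higher. With the notochord 6 of the 7 markers were higher than without it, where 11.1% of all genes tested and 15.3% of those with a symbol were. The 3 named muscle markers of 14 summed to 693 to 720, 78.4 to 82.4 and 39.0 to 54.5 CPM. At stage 63 in whole tail 2 of them, pgam2 and myl3, were lower and 1, pygm, higher. Of all genes tested 40.8% were lower and 43.0% higher, and of those with a symbol 92.8% were higher. Both muscle markers that fell were also higher with than without the notochord, by 1.58 for pgam2 and 1.11 for myl3. These orders of the sums are those of gatm, but krt8 at 1276 CPM and pgam2 at 675 CPM made up most of the sums at stage 60. Across stage 60, stage 63 whole and notochord-removed tail, tbxt was at 2.46, 4.08 and 0.398 CPM and matn4 at 2.43, 5.71 and 5.95 CPM. The muscle gene pygm was at 20.8, 27.3 and 26.7 CPM. Those genes did not follow the order of gatm, while the means of the other named markers of both lists did. Among the latter foxa2 barely moved by stage, at 1.02 and 0.956 CPM (log2 difference -0.12). The others fell with stage and could be named only through the notochord table, so their order is largely fixed by selection. The part of these tissues in the level of gatm was not tested.

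The named markers of other tissues were higher at stage 63 in whole tail, where 92.8% of all tested genes with a symbol were. The 8 named leukocyte markers of 10 summed to 514 to 551 CPM at stage 60, 1223 to 1241 CPM in stage 63 whole tail and 1156 to 1183 CPM after notochord removal. All 8 were higher at stage 63. With the notochord 4 were higher and 1 lower than without it, where 15.3% and 8.46% of genes with a symbol were, among the former the myeloperoxidase gene mpo at 170 and 93.0 CPM. The 8 endothelial markers, all named, summed to 34.8 to 37.1, 166 to 170 and 204 to 218 CPM. With the notochord 5 of them were lower than without it and 0 higher, where 14.5% of all genes tested and 8.46% of those with a symbol were lower. The 8 epidermal rows, for 7 symbols, summed to 428 to 441, 4170 to 4315 and 3981 to 4019 CPM, and the 6 named fibroblast markers of 8 to 1957 to 2024, 6038 to 6761 and 6009 to 6828 CPM. With the notochord 2 epidermal rows and 1 fibroblast marker were higher than without it and 0 lower, where 15.3% and 8.46% of genes with a symbol were. With TMM scaling all 4 sums in notochord-removed tail lay above their stage 60 range, while ass1 overlapped its own. A marker without a ratio above 2 with the notochord could be named only through a rise by stage. The place of these sums is thus largely fixed by selection, and nothing is read from setting them beside ass1. The part of these cells in the level of ass1 was not tested.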

How the data were processed

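Per the labels' protocols, tail RNA was turned into libraries with Illumina's TruSeq chemistry. STAR 2.5.4a and featureCounts 1.5.2 are named in the submitters' processing notes; the strand setting and build are not given in the sources used here. The authors deposited raw read counts, 1 row per Ensembl gene, per the file headers. The authors' deposited tables of selected genes give group means of FPKM and the ratios between them; the FPKM of both members equal counts divided by library total and length.

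The count tests used edgeR 4.0.16 in R 4.3.3, after filterByExpr, with TMM factors (0.672 to 0.690 at stage 60, 1.18 to 1.25 at stage 63), robust glmQLFit and glmQLFTest on 9 libraries with group means, and Benjamini-Hochberg adjustment over 14125 genes. The SE is the log2 difference divided by the square root of F, and 95% intervals are 1.96 SE either way; both are approximate, too narrow at few counts. Counting intervals cover counting error only. Symbols came only from the authors' tables (5605 tested genes). RefSeq identifiers could not be paired with the table's. Within groups all library pairs differed by more than counting noise (chi-square per degree of freedom 2.53 to 22.9).

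The members and lists were chosen with earlier results of these data known. Linked genes were named by rule, up to 3 called genes per list and comparison by adjusted p; other tested or untested list genes named in the text were added after their values were seen. Not every gene under this rule is reported here. The nearest genes used a prior count of 2. Alternatives were scaling, filters, DESeq2 1.42.0, limma-voom (limma 3.58.1), a replicate block, single comparisons and leaving out each library. The fit was tested on simulated counts in which few genes changed, equally many up and down. That test does not cover the scaling between the stages, where most genes were called.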

Additional observations from a re-analysis of the deposited data

How the results depend on the processing

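The stage values moved with scaling. With library size alone, ass1 was at 1.85 between the stages and 0.84 between notochord-removed tail and stage 60, and gatm at -6.59 and -7.80. The all-gene median shifted by 0.82 and 0.85, and the share of higher calls among all calls went from 51.3% to 77.1% between the stages and from 52.2% to 79.2% for notochord-removed tail. In the comparison of whole with notochord-removed tail, library size alone gave 4 linked genes higher and 4 lower, in place of 4 and 2. Over all genes tested, that setting called 1218 higher and 2360 lower, in place of 1570 and 2043. Leaving out single libraries, ass1 ran from 0.98 to 1.06 between the stages, 0.99 to 1.07 between whole and notochord-removed tail, and -0.047 to 0.018 between notochord-removed tail and stage 60; gatm ran from -7.80 to -7.15, 0.85 to 1.56 and -8.97 to -8.51. The linked genes called ran from 23 to 24, 5 to 10 and 22 to 23 in these 3 comparisons, the 10 without notochord-removed replicate 3. Shares of all genes called are not given for these counts or for the replicate block. Such counts are therefore not read as a result about the linked genes. The test of ass1 between whole and notochord-removed tail passed in all 17 alternatives (adjusted p from 2.28e-31 to 1.48e-06), which is no independent support, since the difference was known when the gene was chosen. Of 391 values of other named genes under alternatives, 390 kept direction and call, the exception being gch1. Most of these were stage differences, whose direction the selection fixes, so that count is no support for them. Between whole and notochord-removed tail, arg1, nos2, slc7a7, slc7a3 and slc16a12 kept direction and call in all 17 alternatives, and gch1 lost its call in 1. The fit on only the 6 libraries compared had no value for gatm between whole and notochord-removed tail, where its counts fell below the filter. Not every same-numbered pair of libraries deviated together, nor was each library closest to its own number (correlations of deviations from -0.032 to 0.25 between the stage 63 groups, -0.022 to 0.035 against stage 60), so the numbers are not read as pairs; with the number as a block ass1 was at 1.04 and 8 linked genes were called between whole and notochord-removed tail. Depth limits gatm at stage 63 and arg1, slc7a9 and slc6a14.2 at stage 60, all under 15 counts a library.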
